A study of Mus musculus with 8 samples.

Results

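The transcriptome of Ly6G-positive bone marrow cells of wild-type (WT) mice was described from the 4 WT arrays among the 8 arrays of the series, chosen by their titles. The other 4 arrays hold cells from mice without ATF3, a stress-induced transcription factor, and were not analysed here. The WT mice were C57BL/6 and carried intact Atf3. Marrow was flushed out of the leg bones (tibias and femurs), cells with Ly6G, a neutrophil surface protein, were collected with magnetic beads, and their RNA was labelled with Cy3 and hybridised to 1-colour Agilent mouse arrays. The labels used here give neither the age nor the sex of the mice, they do not state whether each sample is a mouse of its own, and the 4 WT arrays lay on 1 slide. The labels also conflict: the design text has RNA taken directly after sorting, and the description field calls replicate 1 unmanipulated but places replicates 2 to 4 after 1 week in methylcellulose, a culture gel, with 4-OHT. With 1 array described in one way and 3 in the other, the description and the array cannot be told apart, so each array's values are given.

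Neutrophils are short-lived phagocytes that mature in the marrow from dividing promyelocytes and myelocytes to non-dividing band and segmented cells. Their granule proteins are made in order: primary (azurophil) granule proteins such as myeloperoxidase in promyelocytes, secondary (specific) granule proteins such as lactoferrin in myelocytes and metamyelocytes, and tertiary (gelatinase) granule proteins later still. Receptors for chemoattractants, and the actin machinery that drives migration, mark the later stages, and Ly6G is carried by cells from the later myelocyte stage on.

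Signal was measured as the background-subtracted intensity of each probe, on the log2 scale relative to the 75th percentile of the array's own 55681 probes, so that 0 is the signal that 75% of probes do not reach. That percentile was 215, 216, 164 and 151 intensity units in replicates 1 to 4 (186 ± 33.8, SD, n = 4), no spot was saturated, and precision is limited to what 4 arrays give. The share of probes well above background was 55.4, 51.8, 50.5 and 46.4% (51.0 ± 3.69%, SD, n = 4), highest in replicate 1 and lowest in replicate 4. A symbol was matched to 27235 probes, which stand for 20658 named genes, each given by its probe with the highest mean. Of all probes 25134 (45.1%) were well above background on all 4 arrays and 23712 (42.6%) on none. Of the named genes 12277 (59.4%) were so on all 4 arrays, 2024 (9.8%) on 1 to 3 and 6357 (30.8%) on none. Counts of list members given below are to be read beside these shares. Absence here depends on the scanner software's stricter flag: by its looser flag of a signal significantly over local background, 1976 genes were on none. Genes above background on all 4 arrays ran from -3.50 to 10.83 log2 units. Probes differ in how well they hybridise, so a rank or percentile orders probe signals among the named genes and not amounts of RNA. Across genes, the arrays correlated with r from 0.992 (replicates 1 and 4) to 0.997 (replicates 1 and 2), a description in which the points share their probes.

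Of the 5 genes taken to mark neutrophils, 4 were measured and all 4 were in the top 10% of named genes by signal, while Ly6g, the gene of the sorted protein, was matched to no probe. S100a9, which encodes one chain of the calcium- and zinc-binding protein calprotectin, gave 10.43, 10.55, 10.83 and 10.83 log2 units in replicates 1 to 4 (10.66 ± 0.20, SD, n = 4) and ranked 9 among the 20658 genes. S100a8, the other chain, gave 10.14, 10.13, 10.32 and 10.51 (10.28 ± 0.18) and ranked 17. Both were lower in replicates 1 and 2 than in replicates 3 and 4. Csf3r, the receptor of the granulocyte growth factor G-CSF, gave 8.63, 8.61, 8.80 and 8.85 (8.72 ± 0.12, rank 126). Cxcr2, the receptor for neutrophil-attracting chemokines that favours exit from the marrow, gave 7.18, 7.38, 7.08 and 7.34 (7.24 ± 0.14, rank 414), with no such order of the arrays. Defining markers of the labelled cell type were thus present in all 4 arrays.

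The 30 named genes of highest signal, from 10.83 down to 10.05, were led by granule and globin genes. Besides S100a8 and S100a9 they held Lcn2, Camp, Ltf, Ngp, Chil3, Hp and Slpi of the secondary granules and Retnlg, which encodes a resistin-like secreted protein. Housekeeping products were there too, namely actin (Actb) and the actin-binding thymosin Tmsb4x, the ferritin light chain (Ftl1), and Taldo1, an enzyme of the pentose phosphate pathway. S100a6, another small calcium-binding protein, Cd52, a surface glycoprotein, and Msrb1, which repairs oxidised methionine, stood beside them. The globins Hba-a2, Hba-a1 and Hbb-bt, which belong to red cells, ranked among the first 10.

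For some of these 30 genes the rank rested on 1 probe that the gene's other probes did not bear out. Of the 9 with more than 1 named probe, 6 had probes over 5 log2 units apart, against 640 of 5470 such genes in all (11.7%). The 30 were picked by their highest probe, which by itself makes a wide gap more likely, so the contrast is no test. Slc10a1, a bile acid transporter of liver, gave 10.73 with its highest probe and -5.52 with the other. Elk1 gave 10.48 and -2.78, Med16 gave 10.12 and 3.38, and Kctd14, Glrx2 and Ttc38 were split likewise. Camp was the contrary case, with both probes high (10.72 and 10.25). A like split was seen outside the top 30 in Siglech, a plasmacytoid dendritic cell gene, with probes at 8.55 and 0.11. With the median over a gene's probes in place of the highest, 22 of the 30 genes kept their place, and the 6 with split probes were not among them.

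**Figure D1:**
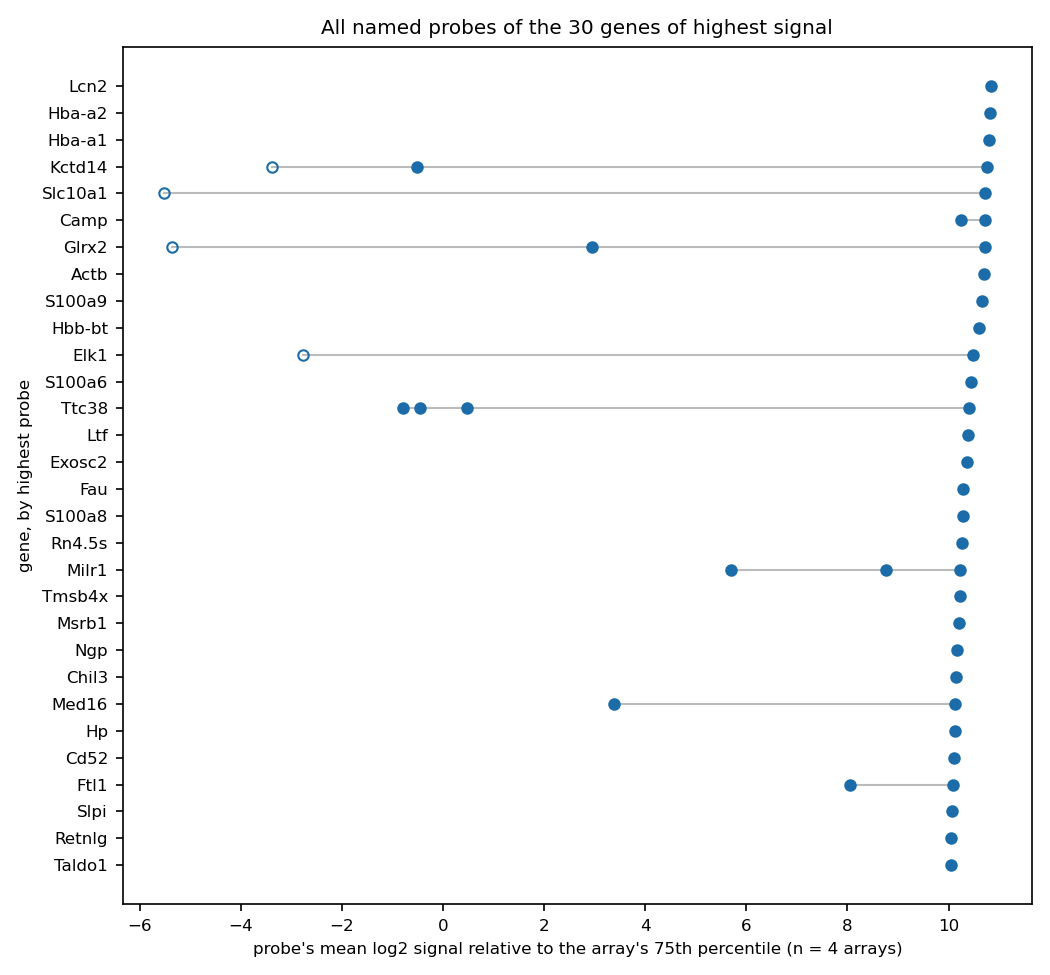
Mean log2 signal over the 4 WT arrays of every named probe (points; open points were not well above background on all 4 arrays) of the 30 genes of highest signal, with a line joining the probes of 1 gene. Kctd14, Slc10a1, Glrx2, Elk1, Ttc38 and Med16 each have a probe over 5 log2 units below their highest, whereas both Camp probes lie above 10 log2 units.

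The granule genes were grouped into lists by the stage at which they are made. All 15 measured secondary granule genes were above background on all 4 arrays, 10 of them in the top 1% of genes, and their median percentile was 99.7. Lcn2, which binds bacterial iron carriers, gave 10.67, 10.74, 10.87 and 11.05 log2 units (10.83 ± 0.17, SD, n = 4), the highest of all named genes. Camp, the cathelicidin antimicrobial peptide, gave 10.53, 10.65, 10.80 and 10.92 (10.72 ± 0.17). Ltf, the iron-binding lactoferrin, gave 10.29, 10.18, 10.46 and 10.65 (10.39 ± 0.20). Replicate 4 was the highest array for each of these genes. The lowest of the 15 was Orm1, an acute-phase glycoprotein, at 2.49 ± 0.07.

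Of 12 primary granule genes, 11 were above background on all 4 arrays, and their median percentile was 80.6. Lyz2, the lysozyme of myeloid cells, was at 9.27 ± 0.07, and Srgn, the proteoglycan that packs granule contents, at 8.13 ± 0.06 (SD, n = 4). Of the enzymes made in promyelocytes, Mpo, myeloperoxidase, gave 4.16, 3.70, 3.74 and 3.66 in replicates 1 to 4 (3.82 ± 0.23). Elane, neutrophil elastase, gave 1.67, 1.30, 1.25 and 1.23 (1.36 ± 0.21), Ctsg, cathepsin G, 2.16, 1.82, 1.59 and 1.53 (1.78 ± 0.29), and Prtn3, proteinase 3, -0.33, -0.70, -0.86 and -0.75 (-0.66 ± 0.23). Replicate 1 was the highest array for all 4 enzymes. Bpi, a bactericidal protein that binds endotoxin, was above background on 1 array.

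Of 12 genes of tertiary granules and secretory vesicles, 10 were above background on all 4 arrays. Mmp8 and Mmp9, the collagenase and gelatinase of these granules, were at 9.33 ± 0.06 and 8.02 ± 0.11 log2 units, Retnlg at 10.06 ± 0.22 and Adam8, a surface protease, at 8.20 ± 0.08 (SD, n = 4). Alpl, the alkaline phosphatase of secretory vesicles, was dim at -1.92 ± 0.50. Mme, the CD10 peptidase that marks mature neutrophils in man, was above background on 1 array, and Arg1, arginase, on none. Of 27 genes of late neutrophil stages, 26 were above background on all 4 arrays and 24 were in the top 10%. Wfdc21 was at 9.81 ± 0.11 and the chemokine gene Ccl6 at 9.11 ± 0.11, and Cxcr4, the receptor that retains cells in the marrow, was at 4.18 ± 0.05.

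**Figure D2:**
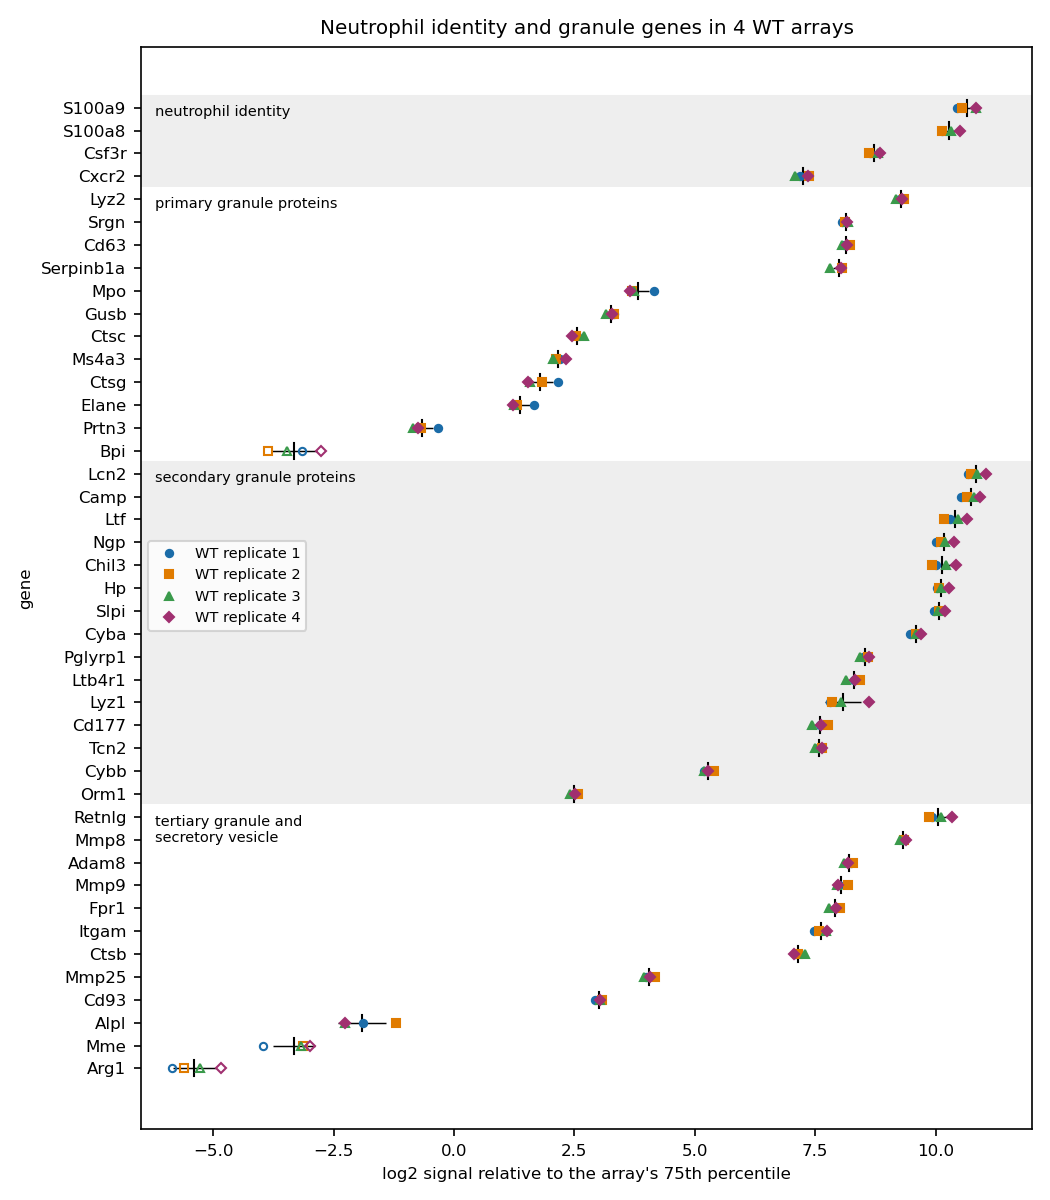
Signal of the measured neutrophil identity and granule genes in each WT array, in log2 units over its 75th percentile (symbols; open where the gene was not well above background on all 4 arrays), with the mean (tick) and SD (bar) over 4 arrays. Most secondary granule genes lie above 7.5, whereas Mpo, Ctsg, Elane and Prtn3 lie between -0.9 and 4.2 with replicate 1 on the right.

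Promoter sequence was read for these genes from RefSeq (GRCm38.p6), as the 250 bases before the start of transcription. C/EBP factors, which drive granule gene transcription, bind sites close to TTGCNNAA, and these letters, on either strand, stood in 8 of 35 windows of granule genes (22.9%) and in 3142 of all 32851 windows (9.56%). A match is a description of the letters, not a binding site. The windows of Lcn2 at chr2:32387740-32387989 (minus strand) and Ltf at chr9:111019042-111019291 (plus strand) are shown because both genes are among the 30 of highest signal and hold a match, given in capitals. In Ltf the match is on the opposite strand. In that of S100a8 at chr3:90668821-90669070 (plus strand) the capitals mark the letters TATAAA, searched on the gene's own strand only, which begin at position -30 from the start and stood in 2494 of the 32851 windows (7.59%). The window of S100a9 was searched in the same way and did not hold these letters.
Lcn2: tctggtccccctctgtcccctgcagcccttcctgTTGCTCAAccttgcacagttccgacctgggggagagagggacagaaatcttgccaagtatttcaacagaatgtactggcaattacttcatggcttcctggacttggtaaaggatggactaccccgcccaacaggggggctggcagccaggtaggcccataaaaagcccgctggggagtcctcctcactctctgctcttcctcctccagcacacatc
Ltf: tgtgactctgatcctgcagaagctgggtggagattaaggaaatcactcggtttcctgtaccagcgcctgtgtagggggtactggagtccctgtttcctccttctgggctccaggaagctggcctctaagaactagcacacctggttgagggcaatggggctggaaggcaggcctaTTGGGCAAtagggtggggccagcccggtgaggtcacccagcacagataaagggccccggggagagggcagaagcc
S100a8: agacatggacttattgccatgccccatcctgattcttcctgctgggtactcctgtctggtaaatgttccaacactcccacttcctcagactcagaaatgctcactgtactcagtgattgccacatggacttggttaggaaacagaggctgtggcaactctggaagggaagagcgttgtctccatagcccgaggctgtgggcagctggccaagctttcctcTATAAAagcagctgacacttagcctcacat

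Of 41 transcription factors of granulopoiesis and of other blood lineages, 38 were above background on all 4 arrays. Cebpe, which switches on secondary granule genes, was at 8.68 ± 0.14 log2 units and Cebpd at 8.57 ± 0.07 (SD, n = 4). Mxd1, an antagonist of Myc, was at 7.59 ± 0.11 and Myc itself at -1.23 ± 0.18. Cebpa, the factor of granulocyte commitment, was at 2.09 ± 0.14, Spi1 (PU.1) at 3.74 ± 0.10 and Gfi1, a repressor of monocyte genes, at 3.47 ± 0.08. Tcf7 and Tbx21, T-cell factors, and Mycn were above background on no array.

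Chemoattractant receptors were represented by the receptors of leukotriene B4, formyl peptides and CXC chemokines. Of 23 genes, 19 were above background on all 4 arrays. Ltb4r1 was at 8.30 ± 0.12, Fpr2 at 8.01 ± 0.11 and Fpr1 at 7.91 ± 0.10 log2 units (SD, n = 4). C5ar1 and C5ar2, receptors of complement C5a, were at 3.95 ± 0.13 and 4.54 ± 0.09. Ccr2, the receptor of monocytes, was at -1.42 ± 0.15. All 32 genes of the signalling chain below these receptors were above background on all 4 arrays, including the G protein genes Gnb2 (8.80 ± 0.13) and Gnai2 (8.29 ± 0.12), the small GTPase gene Rac2 (8.81 ± 0.07) and Pik3cg, the catalytic chain of PI3K gamma (2.83 ± 0.10).

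All 28 actin cytoskeleton genes were in the top 10% of genes and 15 were in the top 1%, with a median percentile of 99.1. Actb gave 10.48, 10.56, 10.85 and 10.91 log2 units (10.70 ± 0.21, SD, n = 4). The actin-binding gene Lsp1 was at 9.65 ± 0.09, Arpc2 of the Arp2/3 branching complex at 9.50 ± 0.09 and Coro1a, a coronin, at 9.43 ± 0.07. All 24 integrin and adhesion genes were above background as well, 14 of them in the top 10%, from Itga5, a fibronectin receptor chain, at -2.50 ± 0.34 upward. They held Itgam (7.63 ± 0.12, with its other probes at 5.74 and 1.69) and Itgb2 (7.47 ± 0.09), the chains of the integrin Mac-1, and Selplg, the P-selectin ligand (7.68 ± 0.08). Itgb3, the platelet integrin chain, was at 5.26 with 1 probe and -0.60 with another.

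Killing and sensing genes were widely present. All 17 genes of the NADPH oxidase and antioxidant list were above background, with the oxidase chains Cyba at 9.58 ± 0.09, Ncf4 at 8.94 ± 0.12 and Cybb at 5.26 ± 0.10 log2 units (SD, n = 4). Of 26 Fc, complement and phagocytic receptor genes, 24 were above background on all 4 arrays, led by the signalling adaptors Tyrobp (9.97 ± 0.08) and Fcer1g (9.40 ± 0.10) and the inhibitory receptor Pirb (8.77 ± 0.10). Of 23 genes of Toll-like receptors and their adaptors, 20 were above background on all 4 arrays and 3, Tlr3, Tlr11 and Ticam2, on none. Tlr13, a sensor of bacterial ribosomal RNA, was at 6.75 ± 0.05, Tlr2 at 5.23 ± 0.08 and Tlr4, the endotoxin receptor, at 1.87 ± 0.03.

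Growth factor and cytokine receptors were above background in 29 of 31 cases, among them Csf2rb, a chain of the GM-CSF receptor (6.48 ± 0.10), Tnfrsf1a, a TNF receptor (6.69 ± 0.09), and Il1r2, the decoy receptor for interleukin 1 (5.51 ± 0.10; log2 units, SD, n = 4). Of 33 cytokine and chemokine genes, 23 were above background on all 4 arrays and 10 on none, the latter close to the 30.8% of all named genes. Il1b, interleukin 1 beta, gave 6.14, 6.27, 6.42 and 6.41 (6.31 ± 0.13). Cxcl2, a chemokine for neutrophils, was uneven at 0.47, 1.58, 1.75 and 1.02, lowest in replicate 1. The 10 genes on no array were Cxcl1, Cxcl3 and Cxcl5, further neutrophil chemokines, the growth factors Csf2 and Csf3, Il1a, Il6, Il12a, Ccl22 and Ifnb1.

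Lipid mediator, death and metabolic genes were also mostly bright. All 14 genes of eicosanoid synthesis were above background, with Alox5ap at 9.15 ± 0.07 and Alox5 at 7.79 ± 0.08 log2 units, the pair that starts leukotriene synthesis (SD, n = 4). Among 21 survival and death genes, all above background, Mcl1, on which neutrophil survival rests, was at 7.24 ± 0.04 and Bcl2 at -1.34 ± 0.08. The 24 genes of glycolysis, the pentose phosphate pathway and glycogen use had a median percentile of 98.6 and included Taldo1 (10.05 ± 0.06), Aldoa (9.59 ± 0.07) and the glycogen phosphorylase gene Pygl (9.53 ± 0.08). The 24 mitochondrial genes had a median percentile of 92.6, with Mdh2 at 8.53 ± 0.10 and Ppargc1a, a driver of mitochondrial gene expression, at -2.03 ± 0.18.

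Stress-induced genes were measurable in the sorted cells. Atf3 itself gave 0.70, 0.82, 0.75 and 0.65 log2 units (0.73 ± 0.07, SD, n = 4), at percentile 65.4 of named genes, and was above background on all 4 arrays. Of 24 immediate early and handling stress genes, 22 were, among them Fos (5.14 ± 0.13), Jun (4.64 ± 0.16), Egr1 (2.66 ± 0.17) and Atf4 (7.64 ± 0.06, with its other probe at 2.51). The heat shock gene Hspa1a was above background on 1 array, and Fosl1 on none. All 21 interferon response genes were above background, led by Rtp4 (7.02 ± 0.19), Oas1a (6.92 ± 0.26) and Irf1 (6.44 ± 0.08, with its other probe at -3.43). Of 18 circadian clock genes 10 were above background on all 4 arrays, about the share of all named genes, and Nfil3 was the highest at 5.22 ± 0.06.

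Of 37 genes from liver, muscle, brain, pancreas, lung, skin and other organs, 10 were above background on all 4 arrays and 16 on none, with a median percentile of 34.0. Alb (albumin), Sftpc (surfactant protein C), Scgb1a1 (club cell secretory protein) and Pomc (pituitary hormone precursor) were among the 16. The 10 on all 4 arrays included the insulin genes Ins1 and Ins2 (-2.52 ± 0.66 and -0.20 ± 0.15), Acta1, muscle actin (-1.04 ± 0.19), and, with the highest signals, Snap25, a synaptic protein (6.87 ± 0.11), and Mbp, myelin basic protein, at 6.45 with its highest probe and 2.11 with the next (log2 units, SD, n = 4). In families chosen after the values were seen, 68 of 1063 olfactory receptor genes (6.40%), 30 of 252 vomeronasal receptor genes, 3 of 56 defensin genes and 2 of 41 Hox genes were above background on all 4 arrays. So were 27 of 95 cytochrome P450 genes (28.4%), 17 of 53 keratin genes (32.1%) and 18 of 51 keratin-associated protein genes (35.3%), and all 79 of the cytosolic ribosomal protein genes counted. The ribosomal set leaves out pseudogenes and Rpl paralogues marked as like genes by an added l in the symbol. Xist, the RNA of the inactive X chromosome, was above background on all 4 arrays (-1.49 ± 0.14, SD, n = 4), and the Y-linked Uty, Ddx3y, Eif2s3y and Kdm5d were on none.

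**Figure D3:**
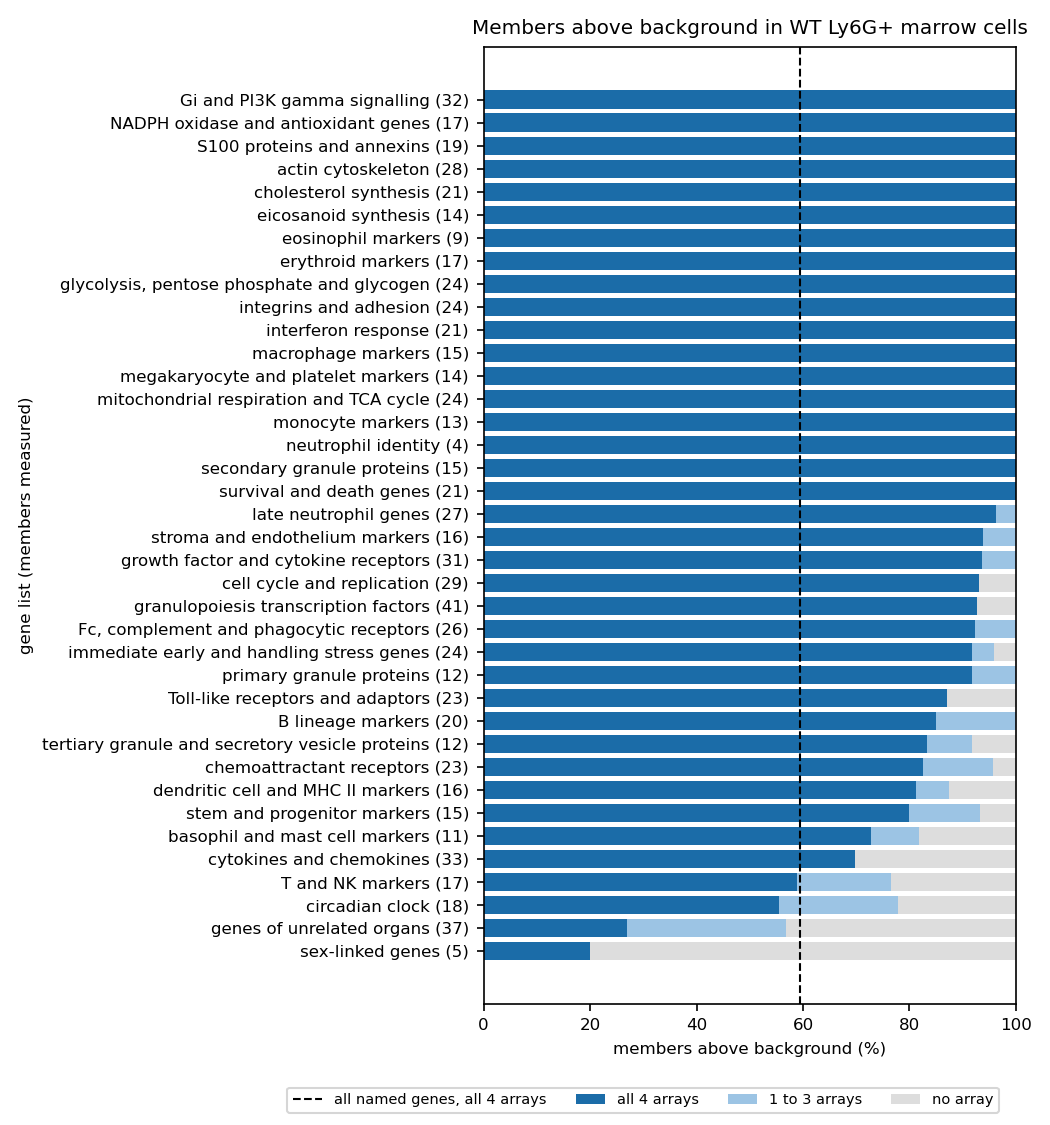
Percent of the measured members of each gene list (number in parentheses) that were well above background on all 4 WT arrays (dark), on 1 to 3 (light) and on none (grey); the dashed line marks the 59.4% of all named genes on all 4 arrays. Genes of unrelated organs and sex-linked genes lie far left of that line, and the circadian clock and T and NK lists just left of it.

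Markers of other marrow cells were present in every WT array, beside 59.4% of all named genes above background on all 4. All 15 macrophage markers were above background on all 4, including Cd5l (6.48 ± 0.12), Slc40a1, the iron exporter ferroportin (6.28 ± 0.06), and the complement genes C1qc (5.68 ± 0.19), C1qb (4.89 ± 0.12) and C1qa (4.86 ± 0.11; log2 units, SD, n = 4). All 13 monocyte markers were present, with Csf1r split between probes at 7.12, 3.24 and 2.41, Ly86 at 3.69 ± 0.21 and Ccr2 at -1.42 ± 0.15. All 14 megakaryocyte and platelet markers were present too, with Pf4, platelet factor 4, at 3.92 ± 0.26. In such bulk samples, fewer cells of a type and less RNA per cell cannot be told apart.

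Lymphoid, dendritic, basophil and progenitor markers were present in part, beside 59.4% of all named genes above background on all 4 arrays. Of 20 B-lineage markers 17 were above background on all 4 arrays, with Cd79b at 4.53 ± 0.11 and Pax5 at -2.43 ± 0.33 log2 units (SD, n = 4). Of 17 T and NK markers, 10 were above background on all 4 arrays, close to the 59.4% of all named genes, and 4 on none, the NK genes Klrb1c, Ncr1 and Klrk1 among these. Of 16 dendritic cell and MHC class II genes, 13 were on all 4 arrays, with H2-Ab1 at 5.37 ± 0.04, while Xcr1 and Cd209a were on none. Of 11 basophil and mast cell markers 8 were on all 4 arrays, Hdc, the histamine-forming enzyme that neutrophils also express, at 8.21 ± 0.02 and Mcpt8, the basophil protease, at -0.59 ± 0.24. Ms4a2 and Cma1 were on none. Of 15 stem and progenitor markers 12 were on all 4 arrays, with Kit at 1.67 ± 0.12 and Cd34 at 0.67 ± 0.19, and Mecom on none.

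Spread among the 4 arrays was small for most genes. Over the 12277 genes above background on all 4 arrays, the median SD was 0.12 log2 units (1.09-fold), and it was lower at higher signal, from 0.26 in the dimmest of 10 equal bins of genes to 0.094 in the brightest. Only 212 genes (1.73%) had an SD over 0.5. Of the genes named here, Lmnb2, a nuclear lamin, and Nemf, a factor of ribosome quality control, varied least, at -0.02 ± 0.01 and 3.52 ± 0.01 (SD, n = 4). The count of 212 depends on single arrays: it was 114 without replicate 4, 156 without replicate 1, 344 without replicate 2 and 350 without replicate 3.

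**Figure D4:**
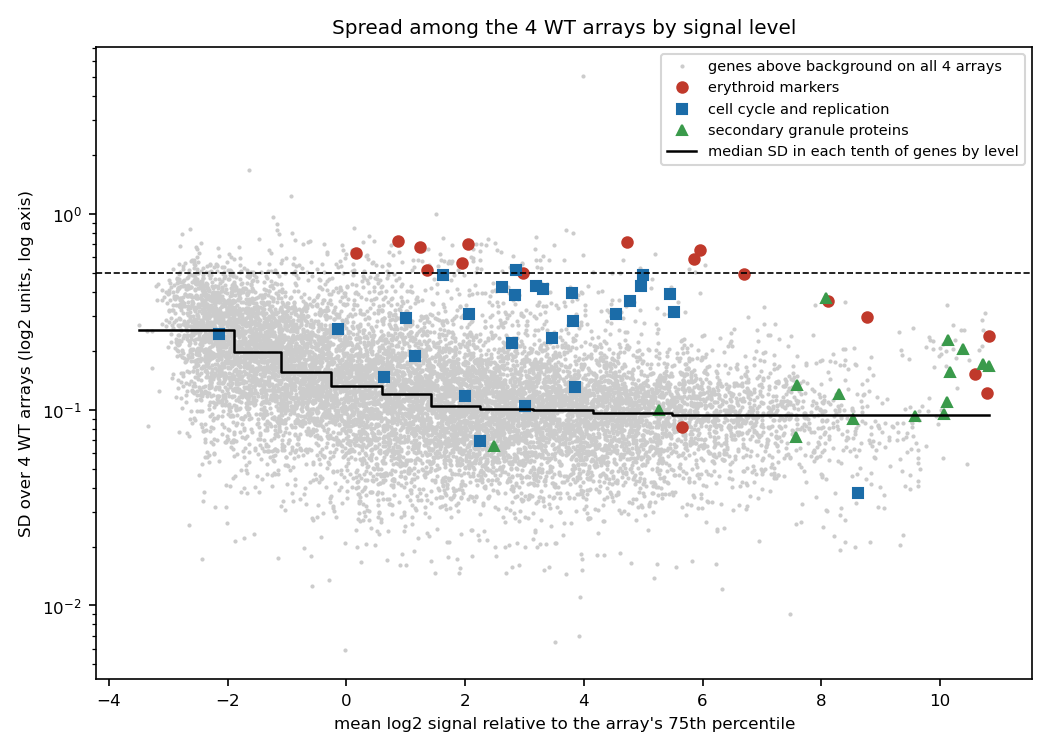
SD over the 4 WT arrays (log axis, log2 units) against mean log2 signal for each gene above background on all 4 arrays, with erythroid (circles), cell cycle (squares) and secondary granule (triangles) genes marked. The stepped line is the median SD in each of 10 bins of genes by signal, from 0.26 to 0.094, and the dashed line an SD of 0.5, above which 9 of the 17 erythroid markers lie.

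Replicates 1 and 4 lay farthest apart, with a root mean square difference of 0.354 log2 units over genes, against 0.228 to 0.277 for the other pairs. Replicate 4 had 71 genes over 1 log2 unit (2-fold) below the mean of the other 3 arrays and 11 above it (0.668% of genes together), and replicate 1 had 13 below and 31 above (0.358%). Replicates 2 and 3 had 9 and 6 such genes in all (0.0733% and 0.0489%). Of the 212 genes with an SD over 0.5, 135 (63.7%) were highest in replicate 1 and lowest in replicate 4, as were 1839 of all 12277 (15%). Replicates 1 and 4 also had the highest and lowest share of probes above background, and the part of that in these counts was not tested. Among the 15 genes of largest SD that order was seen, for example, in Agtr1a, an angiotensin receptor, at -0.30, -0.91, -1.14 and -2.58, and in Rhag, a red cell membrane protein, at 1.27, 0.53, 0.34 and -0.61. Fnip2, a partner of folliculin, had the largest SD of all with 11.58, 1.54, 1.51 and 1.32, from 1 probe.

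Erythroid markers differed most between the arrays. All 17 were above background on all 4 arrays, 9 had an SD over 0.5 against 1.73% of all genes, and 13 were highest in replicate 1 and lowest in replicate 4. Rhd, a blood group protein, gave 5.50, 4.90, 4.77 and 3.77 log2 units (4.73 ± 0.72, SD, n = 4). Klf1, the master transcription factor of red cell genes, gave 1.73, 1.05, 0.68 and -0.01 (0.86 ± 0.72). Slc4a1, the band 3 anion exchanger, gave 6.49, 5.91, 5.96 and 5.07 (5.86 ± 0.59). Replicate 1 was high and replicate 4 low for each, with replicates 2 and 3 between them. Alas2, the first enzyme of haem synthesis in red cells, had the same extremes at 7.23, 6.69, 6.81 and 6.04.

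The list was summed up as a score, the mean deviation of its detected members from their means over the 4 arrays, relative to all genes. The erythroid score was 0.47, -0.02, 0.10 and -0.56 in replicates 1 to 4, a range of 1.03 log2 units (2.04-fold). Without replicate 4 the range was 0.48. The 12 markers other than globins, split off after the values were seen, had scores of 0.61, 0.05, 0.07 and -0.73, a range of 1.33, and 11 of them were highest in replicate 1 and lowest in replicate 4. The exception was Hemgn, a nuclear protein of blood progenitors, with 5.56, 5.62, 5.76 and 5.64. Most globins did not share the order: Hba-a1 gave 10.87, 10.70, 10.93 and 10.68 and Hbb-bt 10.66, 10.45, 10.77 and 10.49, and of the 5 globins of the list it was seen only in Hbb-bs and Hbb-b2. Hbb-bs, an adult beta globin, gave 8.52, 8.11, 8.15 and 7.64.

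Red cell transcription factors in the granulopoiesis list varied in the same way, and were the only 3 with an SD over 0.5 among its 38 members above background on all 4 arrays. Gata1 gave 3.93, 3.35, 3.12 and 2.33 log2 units, Tal1 3.63, 2.98, 2.93 and 2.27, and Gfi1b 2.76, 2.26, 2.08 and 1.31. The score of that whole list, in which these 3 are counted, had a range of 0.04, so it does not show the spread of the other members. The score of the 27 late neutrophil genes had a range of 0.05. Cd36, a scavenger receptor also found on young red cells, gave 0.86, 0.24, 0.34 and -0.31.

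Cell cycle and replication genes had the next widest spread. Of 29 genes, 27 were above background on all 4 arrays and 20 were highest in replicate 1 and lowest in replicate 4. Mki67, the proliferation marker Ki-67, gave 5.89, 5.52, 5.42 and 4.95 log2 units (5.44 ± 0.39, SD, n = 4), with both its probes alike (5.44 and 5.33). Mcm6, a chain of the replicative helicase, gave 5.48, 5.01, 4.92 and 4.43 (4.96 ± 0.43), and Rrm2, which makes deoxynucleotides, 5.52, 5.05, 5.07 and 4.34 (SD 0.49). Each was highest in replicate 1 and lowest in replicate 4. The score was 0.32, -0.00, -0.02 and -0.31, a range of 0.64 (1.55-fold), and 0.30 without replicate 1 or 0.33 without replicate 4. The D-type cyclin genes Ccnd3 and Ccnd2 varied little, at 8.62 ± 0.04 and 2.25 ± 0.07. Cdk6 and Aurkb were above background on no array. The erythroid scores had their highest and lowest values in the same arrays, and their part in the cell cycle values was not tested.

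**Figure D5:**
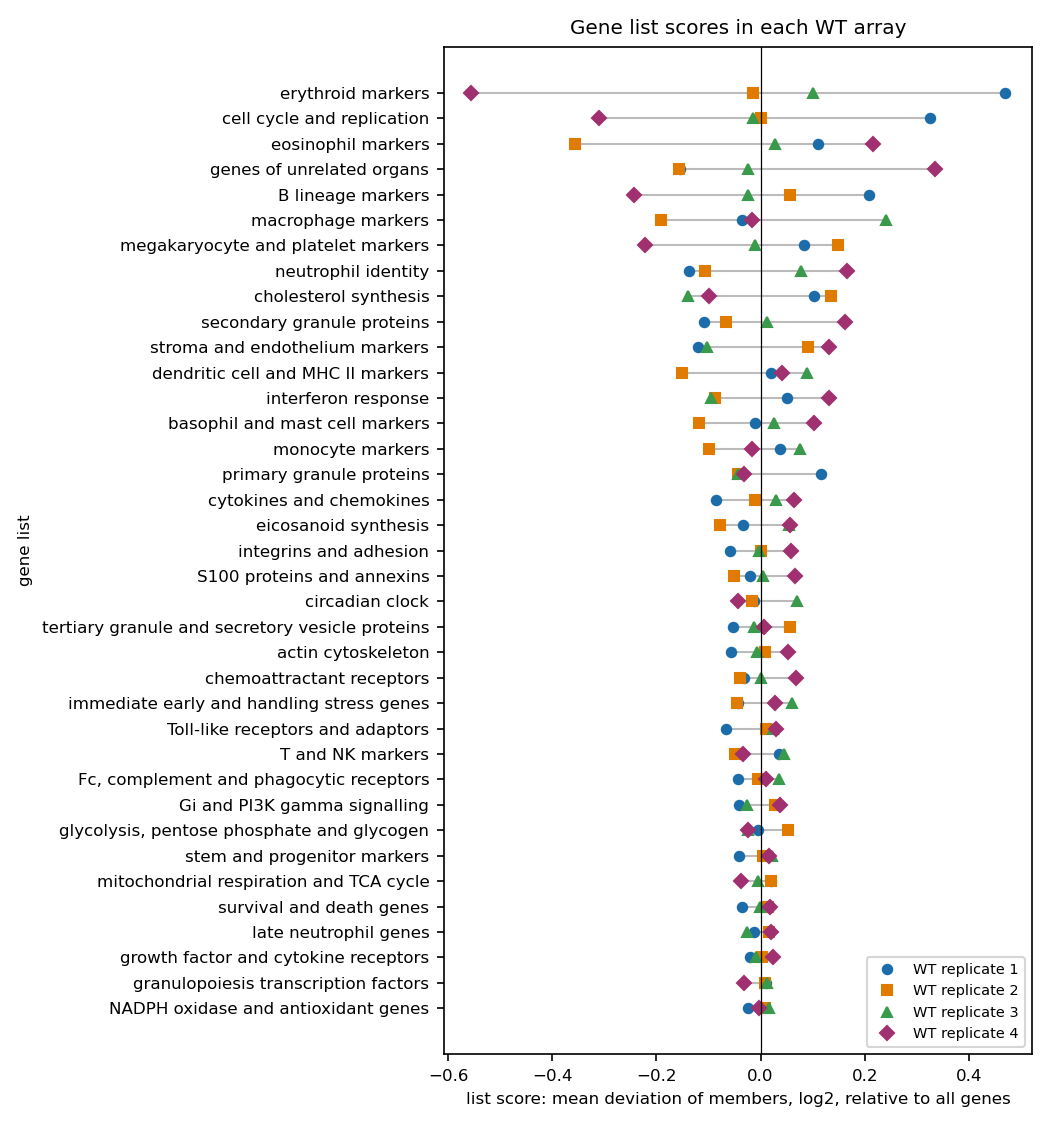
Score of each gene list in each WT array (symbols), as the mean deviation of its detected members from their means over the 4 arrays in log2 units relative to all genes, with lists ordered by range (grey line). The erythroid list runs from -0.56 in replicate 4 to 0.47 in replicate 1 and the cell cycle list from -0.31 to 0.32, while lists near the bottom lie within 0.1 of 0.

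Windows of erythroid and cell cycle genes were searched in the same way, on both strands. The letters AGATAA, the core bound by GATA1, stood in 5 of 12 windows of erythroid markers (41.7%) and 9.99% of all windows. TTTNNCGC, the core bound by E2F factors, stood in 6 of 26 windows of cell cycle genes (23.1%) and 4.28% of all. The 4 windows shown were those of largest SD over the 4 arrays among list members with 1 window that held a match. Matches are in capitals. Shown are Rhd at chr4:134864286-134864535 (plus strand) and Epb42 at chr2:121036878-121037127 (minus strand). Mcm6 at chr1:128359706-128359955 (minus strand) has 3 matches, which overlap in part. Mcm5, another helicase chain, at chr8:75109259-75109508 (plus strand) has 2 that overlap. The match is on the opposite strand in Epb42, a membrane skeleton protein of red cells, as is the later of the overlapping matches in Mcm6 and in Mcm5. Both red cell genes and both helicase genes were highest in replicate 1 and lowest in replicate 4, Epb42 at 0.88, 0.34, 0.09 and -0.65 and Mcm5 at 3.32, 2.93, 2.74 and 2.40 log2 units. Since these genes were picked by SD from lists in which most members had that order, it is no separate result.
Rhd: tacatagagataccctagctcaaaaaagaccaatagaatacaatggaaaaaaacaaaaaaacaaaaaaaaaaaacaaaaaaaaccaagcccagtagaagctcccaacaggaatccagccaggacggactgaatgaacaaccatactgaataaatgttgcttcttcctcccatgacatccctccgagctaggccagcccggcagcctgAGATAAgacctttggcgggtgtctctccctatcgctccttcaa
Epb42: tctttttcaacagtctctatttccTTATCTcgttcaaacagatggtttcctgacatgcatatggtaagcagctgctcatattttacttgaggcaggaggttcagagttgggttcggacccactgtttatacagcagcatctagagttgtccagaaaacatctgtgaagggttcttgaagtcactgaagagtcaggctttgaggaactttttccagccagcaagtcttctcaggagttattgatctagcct
Mcm6: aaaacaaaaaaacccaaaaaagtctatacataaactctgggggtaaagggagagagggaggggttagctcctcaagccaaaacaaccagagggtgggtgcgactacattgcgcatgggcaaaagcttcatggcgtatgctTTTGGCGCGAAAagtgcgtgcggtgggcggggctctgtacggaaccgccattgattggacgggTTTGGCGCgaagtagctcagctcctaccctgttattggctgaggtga
Mcm5: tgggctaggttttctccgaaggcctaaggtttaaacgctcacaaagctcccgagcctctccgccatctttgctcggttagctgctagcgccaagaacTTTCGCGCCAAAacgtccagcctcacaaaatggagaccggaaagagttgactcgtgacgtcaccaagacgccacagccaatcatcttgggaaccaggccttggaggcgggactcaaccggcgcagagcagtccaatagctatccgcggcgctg

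Some genes of early B-cell precursors followed the same order. Of those given here, Igll1 and Vpreb1 are among the B-lineage list's members of largest SD. Igll1, the surrogate light chain, gave -0.06, -0.51, -1.11 and -1.75 log2 units, its partner Vpreb1 2.84, 2.33, 1.82 and 1.54, and Dntt, the polymerase of immunoglobulin gene joining, 1.06, 0.83, 0.33 and 0.14. The score of the 17 B-lineage markers above background on all 4 arrays ran from 0.21 in replicate 1 to -0.24 in replicate 4, and 9 of them had that order. Its range of 0.45 was 0.22 without replicate 4. Ms4a1 (CD20), a marker of mature B cells, did not, at 2.94, 2.67, 2.90 and 2.72. Jchain, the joining chain of plasma cells, was highest in replicate 2 at 4.80, against 3.83, 3.01 and 3.13 in the others.

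For the next 4 lists the range is given with all arrays and without 1 array at its end. Leaving out such an array narrows a range by construction, so the drop is no test. Genes of unrelated organs, 10 of them scored, had -0.16, -0.16, -0.02 and 0.34, a range of 0.49, and 0.07 without replicate 4. With the deposited log2 table that range was 0.21. The 4 Y-linked genes, above background on no array, also rose from replicate 1 to 4, as Kdm5d at -6.08, -5.74, -5.47 and -5.11 log2 units. Several of the scored genes were dim, and the part of background in their score was not tested. Megakaryocyte and platelet markers had 0.08, 0.15, -0.01 and -0.22, a range of 0.37, and 0.16 without replicate 4. The macrophage score was -0.04, -0.19, 0.24 and -0.02, a range of 0.43, and 0.17 without replicate 3 or 0.28 without replicate 2. Eosinophil markers, 9 of 9 above background, had a score of 0.11, -0.36, 0.03 and 0.22, a range of 0.57, and 0.19 without replicate 2. Prg2, the major basic protein of eosinophil granules, gave 4.11, 3.21, 3.67 and 4.10 log2 units, and Ear6, an eosinophil ribonuclease, 2.39, 1.66, 2.20 and 2.57. Alox15, a lipoxygenase that eosinophils express, had its lowest value in replicate 2 as well, at -0.12, -1.22, -0.59 and 0.43. Siglecf, a surface marker on the eosinophil list, did not: it was lowest in replicate 1, at 2.28, 2.40, 2.36 and 2.54. Prg2 and Ear6 are among that list's members of largest SD. The stromal collagen genes were not alike: Col1a1 (1.37, 2.21, 0.91 and 1.65) and Col1a2 (3.10, 3.86, 2.81 and 3.32) were highest in replicate 2, and Col3a1 (0.73, -0.32, -0.69 and 0.23) in replicate 1. Cholesterol synthesis genes scored 0.10, 0.13, -0.14 and -0.10, so that replicates 1 and 2 lay above replicates 3 and 4 by up to 0.27.

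The very brightest genes leaned the opposite way from the erythroid list. Of the 30 genes of highest signal, 28 were highest in replicate 4, with a score of -0.15, -0.19, 0.12 and 0.22, and the 207 genes in the top 1% had -0.07, -0.07, 0.03 and 0.10, with 111 highest in replicate 4. The 2066 genes in the top 10% showed no such lean, with scores of -0.01, 0.01, -0.01 and 0.01 and 455 highest in replicate 4. The share of all detected genes highest in replicate 4 is not given, so the lean is read from the scores, which are relative to all genes. Of the neutrophil lists, 3 of 4 identity genes and 10 of 15 secondary granule genes were in the top 1%, so their scores are no separate result. The neutrophil identity score of -0.14, -0.11, 0.08 and 0.17 and the secondary granule score of -0.11, -0.07, 0.01 and 0.16 had the same direction as the top 1%. With quantile normalization, which gives all arrays one distribution of signals, their ranges were 0.11 in place of 0.30 and 0.098 in place of 0.27, and without replicate 4 the secondary granule range was 0.125. The erythroid range, 1.03, was 1.07 with it, and the cell cycle range, 0.64, was 0.62.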

How the data were processed

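RNA of Ly6G-positive marrow cells was measured on 8 Agilent 1-colour arrays, and the 4 WT arrays, grouped by title, were used. Per the file headers, Agilent Feature Extraction 10.9.1.1 (10.10 per the submitters' processing notes) gave spot intensity, background-subtracted and detrended within the array, with no scaling between arrays. The array design names mm9. The deposited table of the series holds log2 values, with scale, centring and direction left unstated. Its WT columns have medians of 6.15 and track the log2 median signal of the matching array (r from 0.999 to 1 across features), and it served as an alternative. Its 4 columns of other samples were not used.

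Control spots and spots with outlier flags (98 to 159 per array) were left out, spots of a probe were averaged, and the 75th percentile over all probes was subtracted on the log2 scale. Symbols came from matching transcript accessions, without versions, to RefSeq genes (GRCm38.p6), and 28446 probes got none. Of 732 listed genes 712 were measured. Of the 59305 spots, 0 were saturated. No test between groups was made, and SDs give the spread between these samples only. The members and the 38 lists were chosen with earlier results of these data known. Genes named are Atf3 and the identity markers, the 30 of highest signal, the 15 of largest and 10 of smallest SD, and from each list up to 6 of highest signal, 4 above background on no array and 3 of largest SD. Genes named beyond these, the gene families, the top-percent sets and the globin split were chosen after the values were seen. Values of some genes are not reported here; they still enter the counts. Scripts (Python 3.11.15, pandas 2.3.3, R 4.3.3, limma 3.58.1) were tested on simulated data. Alternatives were normexp (offset 50, on median signal and median background, since mean signal was not used here), median and quantile scaling, the percentile over detected probes, the deposited log2 table, the median probe, other detection rules and leaving out each array.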

Additional observations from a re-analysis of the deposited data

Results flagged for a closer look

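In 316 genes, 37 gene lists and 5 array measures, values were looked for in which 1 array lay far from the other 3 by Dixon's ratio of gap to range, which by chance is passed in about 1 in 20 groups. Of these, 11 genes, 2 lists and 1 array measure had one. For genes and lists that is about the rate of 1 in 20 or below it, so the values are given as description only. The genes checked include the 15 picked for largest SD, among them Fnip2, Cltb, Map4k5 and Mettl18. The array measure was the number of genes over 1 log2 unit below the mean of the other arrays, 71 in replicate 4 against 13, 5 and 4. The primary granule score was 0.12 in replicate 1, against -0.04, -0.04 and -0.03, with Mpo at 4.16 there. The score of granulopoiesis transcription factors was -0.03 in replicate 4, against 0.01 in each of the others. That list holds the red cell factors Gata1, Tal1 and Gfi1b, which were lowest in replicate 4 (2.33, 2.27 and 1.31 log2 units). Their part in the score was not tested, so it is not read as a result about the other factors.

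Single genes followed no common array. Replicate 1 was high for Fnip2 (11.58) and Cltb, a clathrin light chain (0.89 against -1.62, -1.29 and -1.70). Replicate 2 was low for Ciita, the MHC class II activator (-1.61), and high for Adipoq, adiponectin (2.04). Replicate 3 was high for Mettl18 (1.39 against -0.39, -0.20 and -0.28) and low for Serpinb1a, an inhibitor of granule proteases (7.81), and S100a11 (7.92). Replicate 4 was low for Map4k5, a kinase (0.02 against 2.21, 1.88 and 1.90), and high for Jund (6.13) and Cd3e (1.04).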

How the results depend on the processing

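Of the main values recomputed under the alternatives, 70 stayed within their limits and 16 moved, and of the values of single genes and lists 378 stayed and 82 moved. The 212 genes with SD over 0.5 became 484 with detection on at least 2 of 4 arrays, 3037 with no filter on dim probes, 331 with median scaling, 85 with normexp, 57 with the deposited log2 table and 114 to 350 when 1 array was left out. The median SD of 0.12 became 0.205 with median scaling and 0.214 with no filter (0.11 to 0.12 without 1 array). With the looser detection flag, 37883 probes instead of 25134 were above background on all arrays, 7469 instead of 23712 on none, and 1976 genes instead of 6357 on none. The cell cycle range of 0.64 ran from 0.30 to 0.64 and the erythroid range of 1.03 from 0.48 to 1.03 when 1 array was left out. In both lists replicate 1 was highest and replicate 4 lowest under the background, scaling, deposited-table and probe alternatives, and without replicate 2 or 3. The cause of these moves was not tested. Background limits what dim probes show, since values near it vary most and the sign of absence follows the flag. No paired analysis was possible because only the WT group entered.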
